A study of Homo sapiens with 9 samples.

Results

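The insulin-like growth factor (IGF) binding protein genes are the 7 genes IGFBP1 to IGFBP7, taken by symbol from a table of 26475 gene symbols in which all 7 are present. Of the 7, 6 passed the filter on low counts and were among the 16417 genes tested, and IGFBP1 did not. The 9 libraries came from A375, 1 human melanoma cell line with a BRAF mutation, grown in DMEM with 10% fetal bovine serum. For 24 h the cells received DMSO, the solvent that served as vehicle control, or TP-472, a compound that inhibits the bromodomains of BRD7 and BRD9, at 5 µM or 10 µM, with 3 libraries per group. Serum is itself a source of IGFs and of their binding proteins, and only the RNA of the A375 cells was measured. Expression is given as CPM, the counts of a gene scaled to a common library size, as mean ± SD of 3 libraries unless single libraries are named.

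IGFBPs are secreted proteins that bind IGF1 and IGF2 outside the cell and keep them from, or deliver them to, the IGF1 receptor, whose signal runs through the IRS adaptors to PI3K and AKT. IGFBP1 to IGFBP6 bind IGFs with high affinity, whereas IGFBP7 binds them weakly. Proteases such as PAPPA and HTRA1 cleave the binding proteins and free the IGFs, and several IGFBPs also act on cells without IGFs, through integrins, heparan sulfate or other surface partners. In melanoma, IGFBP7 has been studied as a secreted inhibitor of BRAF-driven growth.

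The family fell in a selective manner. IGFBP3 and IGFBP5, which together gave nearly as many counts as the other members in DMSO, were downregulated at 5 µM and further at 10 µM. IGFBP5 was 1.91-fold lower at 5 µM and 12.1-fold lower at 10 µM, IGFBP3 2.01-fold and 4.68-fold lower, and IGFBP7 1.62-fold and 2.25-fold lower. IGFBP2, IGFBP4 and IGFBP6 were not called at either dose, and no member was upregulated. To be called, a gene had to change by 1.5-fold or more with an adjusted p below 0.05 (edgeR quasi-likelihood F test, Benjamini-Hochberg over all 16417 genes). IGFBP4 met the limit on p at 10 µM (adjusted p = 0.0325) but was only 1.25-fold lower. Without 10 µM replicate 1, IGFBP4 and IGFBP6 were lower by 0.47 and 0.57 on the log2 scale, also under the fold limit.

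The members sit at 5 loci of GRCh38 in GENCODE release 29, and 4 of them form 2 pairs of neighbours. On chromosome 7, IGFBP1 (45888357 to 45893668, plus strand) lies 18576 bp from IGFBP3 (45912245 to 45921874, minus strand). On chromosome 2, IGFBP2 (216632828 to 216664436, plus strand) lies 7668 bp from IGFBP5 (216672105 to 216695525, minus strand). In each pair the annotation holds 0 genes between the neighbours, and their 3′ ends face each other. IGFBP4 is on chromosome 17 (40443461 to 40457731, plus strand), IGFBP6 on chromosome 12 (53097436 to 53102345, plus strand) and IGFBP7 on chromosome 4 (57030773 to 57110385, minus strand). IGFBP5, with the largest fall at 10 µM among the 6 tested members, is thus the neighbour of IGFBP2, which was not called, and IGFBP3 is the neighbour of IGFBP1, which was too low to test.

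The sequences just before the start sites are shown for IGFBP3 and IGFBP5, the tested members with the largest falls, and for IGFBP4, the most highly expressed member and not called. Each is the 250 bases before the RefSeq start on GRCh38.p14, printed 5′ to 3′ on the gene's strand, with motif matches in capitals. The windows are chr7:45921273-45921522 (minus strand) for IGFBP3, chr2:216695550-216695799 (minus strand) for IGFBP5 and chr17:40443200-40443449 (plus strand) for IGFBP4. In GENCODE the IGFBP3 window lies inside the span of a longer IGFBP3 transcript, the IGFBP5 window inside the span of the antisense gene AC007563.2, and the IGFBP4 window in no gene.
IGFBP3: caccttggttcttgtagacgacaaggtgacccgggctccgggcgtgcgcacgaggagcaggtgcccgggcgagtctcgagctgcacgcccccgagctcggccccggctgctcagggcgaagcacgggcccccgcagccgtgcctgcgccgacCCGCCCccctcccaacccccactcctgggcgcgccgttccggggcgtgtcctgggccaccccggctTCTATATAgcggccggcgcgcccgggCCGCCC
IGFBP5: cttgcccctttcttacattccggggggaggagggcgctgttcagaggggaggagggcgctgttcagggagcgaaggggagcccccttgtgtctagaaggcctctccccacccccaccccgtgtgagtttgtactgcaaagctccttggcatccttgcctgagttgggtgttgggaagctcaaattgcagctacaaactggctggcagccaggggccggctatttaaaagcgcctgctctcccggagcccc
IGFBP4: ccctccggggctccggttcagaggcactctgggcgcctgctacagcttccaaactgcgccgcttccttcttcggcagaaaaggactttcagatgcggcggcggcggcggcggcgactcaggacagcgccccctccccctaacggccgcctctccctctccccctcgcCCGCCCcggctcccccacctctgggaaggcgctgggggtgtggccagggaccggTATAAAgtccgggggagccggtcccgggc

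The windows were searched on both strands for 4 motifs chosen after the sequences were seen. TATANA is the core of a TATA box. CCAAT is bound by NF-Y. GGGCGG is the GC box bound by SP1 and reads CCGCCC on the opposite strand. TGANTCA is bound by AP-1. IGFBP3 and IGFBP4 each held TATANA close to the start, at 32 and 30 bases before it in IGFBP3, where the matches overlap, and at 29 bases before it in IGFBP4. GGGCGG lay 98 and 6 bases before the start of IGFBP3 and 83 bases before that of IGFBP4, and the IGFBP5 window held none of the 4 motifs in these letters. Among all 35116 RefSeq promoter windows of the same length, 17.7% held TATANA, 32.0% CCAAT, 42.6% GGGCGG, and TGANTCA was held by 6.57%. The IGFBP3 window was 76.0% G and C with 32 CpG sites, that of IGFBP4 71.6% with 24 and that of IGFBP5 61.2% with 8, against medians of 58.0% and 11 over all windows. In these exact letters, IGFBP3 and IGFBP4 thus shared TATANA and GGGCGG, and IGFBP5 held neither. The IGFBP5 window does read tatttaaa close to the start, which a search for TATANA misses, so a variant of the TATA box was not looked for. IGFBP2 and IGFBP6, also not called, held GGGCGG in a window and no TATANA. Of the 7 members, 5 have a RefSeq window in the table used, and IGFBP1 and IGFBP7 do not.

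The libraries held 42483091 to 51298130 counts each. Ribosomal RNA genes held between 8.20% and 19.9% of a library, with 8.79% to 10.9% in DMSO. The 10 µM libraries varied more than the others, and replicate 1 stood apart most. Its median deviation from the other libraries of its group was 0.412 on the log2 scale in absolute size, against 0.236 and 0.249 for 10 µM replicates 2 and 3, whose comparison includes replicate 1, and 0.0729 to 0.118 for any DMSO or 5 µM library. Transcript length and GC content accounted for 10.4%, 4.47% and 5.19% of the variance of these deviations in the 10 µM libraries and for 0.0935% to 0.458% in the others. With that trend removed, IGFBP3, IGFBP5 and IGFBP7 were at -2.34, -3.46 and -1.39 for 10 µM against DMSO and still called. Each result at 10 µM is also given without replicate 1 where this changes a call. Of 8 melanocyte lineage markers, SOX10 (417 ± 11.0 CPM in DMSO), MITF (31.9 ± 1.79 CPM), S100B (7.09 ± 0.656 CPM) and PMEL (1.48 ± 0.107 CPM) were detected. TYRP1 and MLANA were low, at 0.331 ± 0.106 and 0.173 ± 0.0358 CPM in DMSO. TYR was at 0 counts in all 9 libraries and DCT in every DMSO and 5 µM library. The summed CPM of the 8 markers, most of it from SOX10, ranged from 446 to 465 in DMSO, from 447 to 459 at 5 µM and from 399 to 447 at 10 µM, and 0 of the 6 tested were called by edgeR at either dose. The 12 markers of liver, blood, epithelial, endothelial and fibroblast or mural cells had a summed CPM of 34.4 to 36.9 in DMSO, of 25.4 to 27.9 at 5 µM and of 20.8 to 23.9 at 10 µM. Of these, CD3E was at 0 in all libraries and PDGFRB, the most abundant of them, was called lower at both doses (22.8 ± 0.597, 12.4 ± 0.826 and 8.59 ± 2.32 CPM). The part of these markers in the results was not tested. In bulk RNA, fewer cells that express a gene and less of its RNA per cell cannot be told apart.

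**Figure D1:**
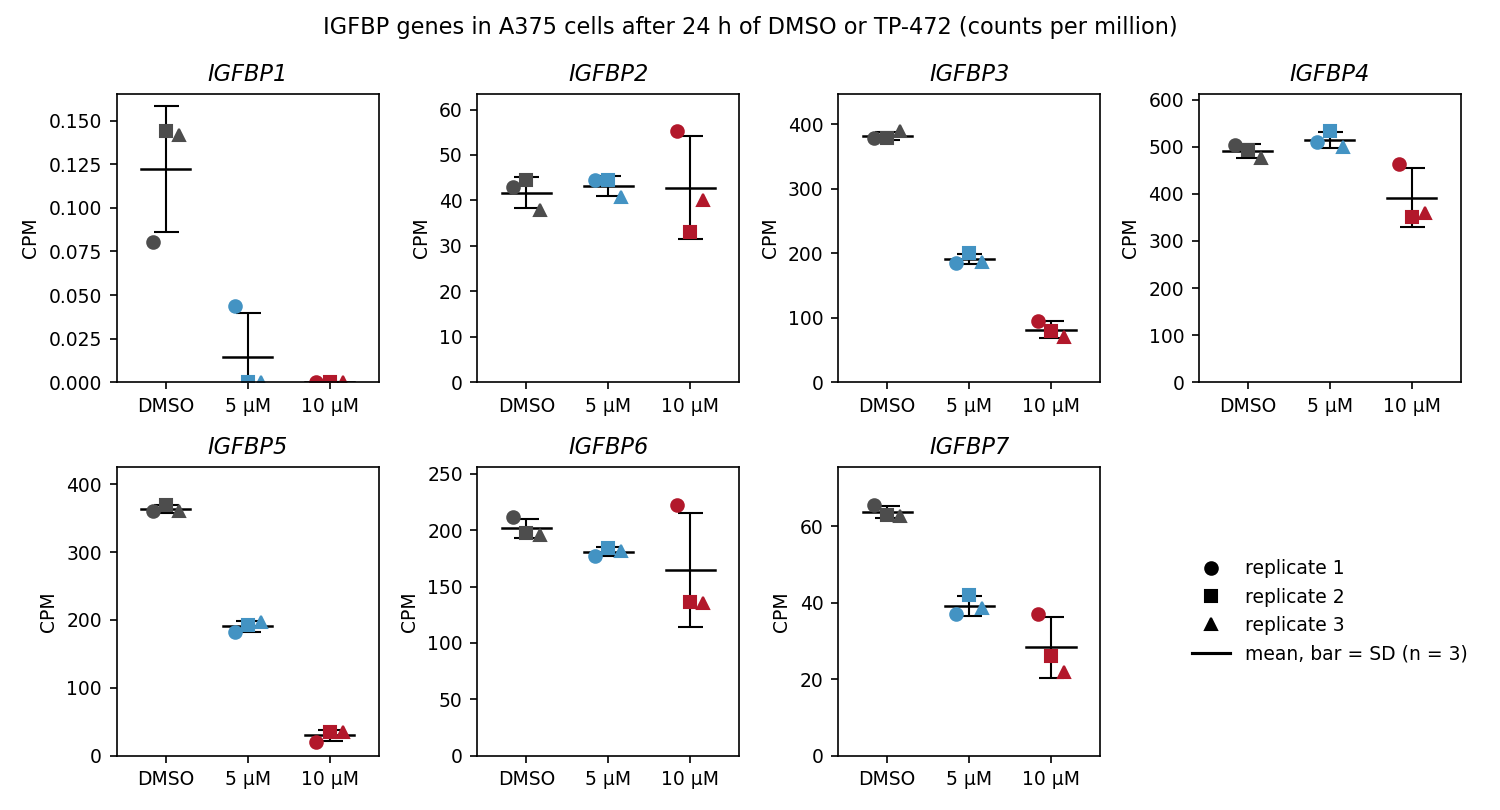
CPM of each IGFBP gene in the 9 libraries by treatment, with points for libraries (shape gives the replicate) and lines and bars for mean and SD of 3 libraries; each panel has its own axis from 0. IGFBP3, IGFBP5 and IGFBP7 step down from DMSO to 5 µM, while 10 µM replicate 1 (circle) is the highest 10 µM library for every plotted gene except IGFBP5, where it is the lowest at 20.1 CPM, and IGFBP1, which is at 0.

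IGFBP5, a binding protein that also attaches to extracellular matrix, showed the largest change of the 6 tested members at 10 µM. Its expression was 360, 370 and 360 CPM in the DMSO libraries, 182, 193 and 197 CPM at 5 µM, and 20.1, 35.2 and 34.7 CPM at 10 µM. The 3 groups were fully separated, with the 10 µM libraries far below both others. The log2 fold change was -0.93 at 5 µM (SE 0.17, adjusted p = 0.00792) and -3.60 at 10 µM (SE 0.19, adjusted p = 1.06e-06). From 5 to 10 µM it fell by a further 2.67 on the log2 scale (SE 0.18, adjusted p = 5.63e-05), or 6.35-fold.

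IGFBP3, the main carrier of IGFs in the circulation and a growth inhibitor in many cell cultures, fell in nearly equal log2 steps. It was at 379, 379 and 389 CPM in DMSO, 185, 200 and 187 CPM at 5 µM, and 95.4, 79.8 and 69.7 CPM at 10 µM. The groups did not overlap in any of the 3 comparisons. The log2 fold change was -1.004 at 5 µM (SE 0.10, adjusted p = 0.000382), -2.23 at 10 µM (SE 0.11, adjusted p = 6.93e-07) and -1.22 between the doses (SE 0.11, adjusted p = 0.000165).

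IGFBP7, a secreted protein with low affinity for IGFs that binds to vascular and matrix partners, fell less. Its expression was 65.6, 62.8 and 62.6 CPM in DMSO, 36.9, 42.05 and 38.6 CPM at 5 µM, and 37.0, 26.1 and 21.7 CPM at 10 µM. Every treated library was below every DMSO library, whereas the doses overlapped through 10 µM replicate 1. The log2 fold change was -0.70 at 5 µM (SE 0.16, adjusted p = 0.0234) and -1.17 at 10 µM (SE 0.16, adjusted p = 0.000493), and that between the doses, -0.47 (95% confidence interval -0.83 to -0.11, adjusted p = 0.109), was not called. The call at 5 µM was lost on leaving out any single DMSO or 5 µM library (adjusted p = 0.0641 to 0.0987, log2 fold change -0.75 to -0.66). It was nevertheless made in 14 of 21 alternatives. In edgeR fitted to the DMSO and 5 µM libraries only, the value was -0.70 (adjusted p = 1.26e-07). Without 10 µM replicate 1 the difference between the doses was -0.71 (adjusted p = 9.52e-06) and was called, as it was with the length and GC trend removed (-0.63, adjusted p = 0.00334).

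Antisense transcription was considered for IGFBP7, since 18.9% of its exonic bases are overlapped on the opposite strand, 13.99% by POLR2B, a subunit of RNA polymerase II, and 4.87% by IGFBP7-AS1. POLR2B was at 211 ± 0.961, 212 ± 6.93 and 205 ± 32.8 CPM in DMSO, 5 µM and 10 µM and was not called, and IGFBP7-AS1 never exceeded 10 counts in a library. The libraries were strand-specific, and no source used here says if RSEM counted by strand. The expected counts of IGFBP7 were not whole in any library (3258.92 in DMSO replicate 1), whereas those of the other members were whole in all. The reason was not tested. IGFBP5 is overlapped over 4.63% of its exonic bases, by AC007563.2.

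IGFBP4, which inhibits IGF action until PAPPA cleaves it, was the most abundant member. Its expression was 504, 493 and 476 CPM in DMSO, 511, 533 and 500 CPM at 5 µM, and 464, 351 and 359 CPM at 10 µM. The 5 µM libraries overlapped DMSO (log2 fold change 0.069, 95% confidence interval -0.16 to 0.30, adjusted p = 0.763). All 3 libraries at 10 µM were below all those of the other groups. The fall, -0.33 against DMSO (-0.55 to -0.10, adjusted p = 0.0325) and -0.40 against 5 µM (adjusted p = 0.0426), stayed under the fold limit.

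IGFBP6, which binds IGF2 in preference to IGF1, was at 211, 198 and 196 CPM in DMSO, 177, 184 and 181 CPM at 5 µM, and 223, 136 and 135 CPM at 10 µM. The 5 µM libraries all lay below DMSO by a small margin, and at 10 µM 1 library was the highest of all 9 while the others were the lowest. Neither difference was called (log2 fold change -0.16, 95% confidence interval -0.53 to 0.22, adjusted p = 0.653 at 5 µM, and -0.29, -0.67 to 0.081, adjusted p = 0.209 at 10 µM). Without 10 µM replicate 1, IGFBP6 was -0.57 (adjusted p = 2.58e-08) and IGFBP4 -0.47 (adjusted p = 4.36e-08) against DMSO, both still under the fold limit of 1.5.

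IGFBP2, often raised in tumours and a ligand of integrins, was at 42.8, 44.4 and 37.8 CPM in DMSO, 44.5, 44.5 and 40.7 CPM at 5 µM, and 55.2, 33.0 and 40.2 CPM at 10 µM. The 3 groups overlapped, with the highest and the lowest library both at 10 µM. The log2 fold change was 0.053 at 5 µM (95% confidence interval -0.31 to 0.41, adjusted p = 0.895) and 0.038 at 10 µM (-0.32 to 0.40, adjusted p = 0.885). Changes inside these intervals could not be told from 0 with 3 libraries a group. Without 10 µM replicate 1 the value at 10 µM turned to -0.19 (adjusted p = 0.0831).

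IGFBP1, made mainly by liver, had 4, 7 and 6 counts in the DMSO libraries, 2, 0 and 0 at 5 µM, and 0 in each library at 10 µM. It was close to the limit of detection in every group and too low for the filter. Summed over a group, 17 counts in DMSO against 2 at 5 µM gave a ratio of 8.78 (95% confidence interval 2.08 to 78.4, exact binomial, counting error only). At 10 µM it was at least 6.01-fold lower than in DMSO, taking a floor of 3 counts over the group and the 17 DMSO counts as free of counting error. In edgeR without the filter, the adjusted p was 0.472 at 5 µM and 0.0865 at 10 µM, so neither difference passed.

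In counts, 3 of the 6 tested members were called lower and 0 higher at 5 µM, against 2.72% of all tested genes lower and 2.14% higher. At 10 µM, 3 were again called lower and 0 higher, against 10.5% and 8.57%. Between the doses, 2 were called lower and 0 higher at 10 µM, against 2.59% and 1.42%. The median log2 fold change of the 6 tested members was -0.43, -0.75 and -0.43 in these comparisons, beside 0.0054, 0.011 and 0.0012 over all genes tested. The comparisons with DMSO share the 3 DMSO libraries, and each dose enters 2 comparisons, so they are not independent. In edgeR, 4008, 7229 and 4069 of the 16417 genes had an unadjusted p under 0.05 in the 3 comparisons.

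**Figure D2:**
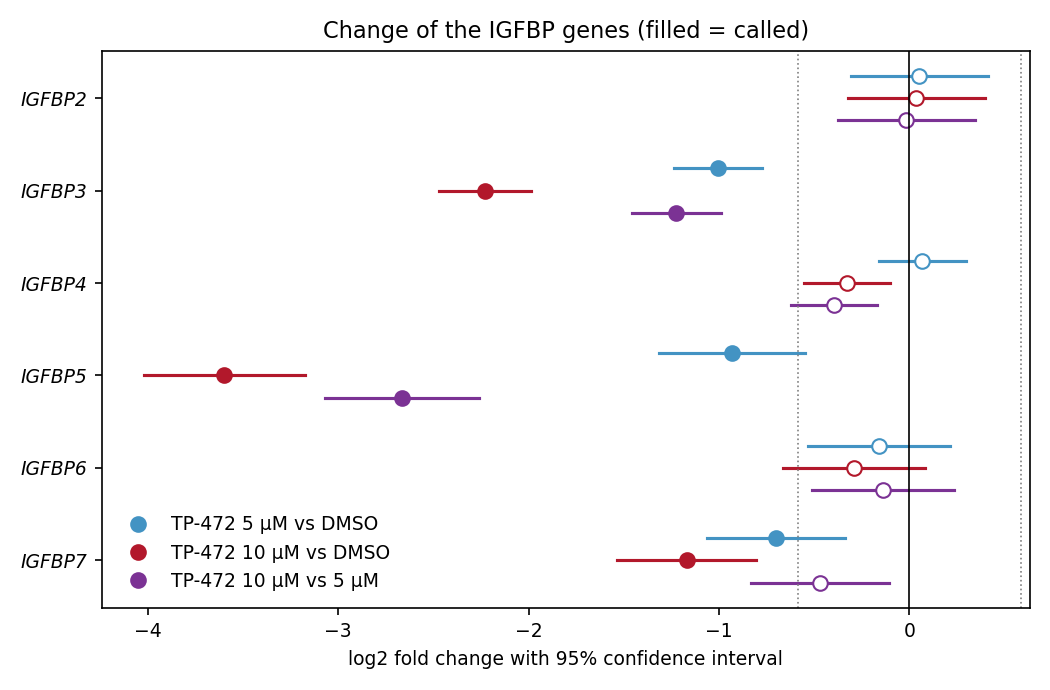
Log2 fold change of the 6 tested IGFBP genes with 95% confidence intervals, by comparison; filled points are called and dotted lines mark a fold change of 1.5. IGFBP3 and IGFBP5 lie beyond the left line in all 3 comparisons, with IGFBP5 at -3.60 for 10 µM, whereas every interval of IGFBP2 and IGFBP6 includes 0.

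IGFBP5 and IGFBP3 fell almost alike at 5 µM and parted at 10 µM. The ratio of IGFBP5 to IGFBP3 counts within a library was 0.952, 0.977 and 0.925 in DMSO and 0.982, 0.966 and 1.05 at 5 µM. At 10 µM it was 0.211, 0.440 and 0.499, so that every 10 µM library was below all 6 others. The ratio of IGFBP7 to IGFBP4, with another denominator, was 0.130 ± 0.00206 in DMSO, 0.0761 ± 0.00346 at 5 µM and 0.0716 ± 0.00997 at 10 µM. At 10 µM it was 0.0798 in replicate 1, 0.0744 in replicate 2 and 0.0605 in replicate 3, so the doses overlapped. IGFBP4 itself fell between the doses (log2 fold change -0.40), so this ratio does not show that IGFBP7 held its level. A contrast added after the values were seen took the step from 5 to 10 µM minus the step from DMSO to 5 µM, on the log2 scale. The second step of IGFBP5 was the larger by 1.73 (difference of steps -1.73, SE 0.29, adjusted p = 0.0362). Of the 6 tested members it was the 1 called lower and 0 were called higher, against 0.298% and 0.158% of all genes. The call did not survive leaving out any single DMSO or 5 µM library (adjusted p = 0.125 to 0.222), although the difference itself stayed between -1.80 and -1.69 in those fits, and it was lost with the replicate block (-1.76, adjusted p = 0.0661). In all, the contrast was called for IGFBP5 in 13 of 20 alternatives, with values of -1.87 to -1.52 over the 20. Without 10 µM replicate 1, IGFBP4 was also called, with a difference of steps of -0.61, which made 2 members.

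The make-up of the IGFBP transcripts changed accordingly. The summed CPM of all 7 members was 1544 ± 20.6 in DMSO, fell to 1159 ± 32.6 at 5 µM and was 739 ± 135 at 10 µM. IGFBP3 and IGFBP5 held 24.8% ± 0.722 and 23.5% ± 0.443 of the IGFBP counts in DMSO, 16.4% ± 0.214 and 16.4% ± 0.674 at 5 µM, and 11.1% ± 0.854 and 4.28% ± 1.75 at 10 µM. IGFBP4 held 31.8% ± 0.486, 44.4% ± 0.641 and 53.1% ± 1.25, and IGFBP6 13.1% ± 0.409, 15.6% ± 0.203 and 22.0% ± 2.53. The shares of IGFBP2 were 2.70% ± 0.197, 3.73% ± 0.179 and 5.75% ± 0.654, a rise in share without a rise in CPM. The mean share of IGFBP7 stayed between 3.38% and 4.12%. Counts are not corrected for gene length, so these shares describe sequenced fragments rather than molecules.

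**Figure D3:**
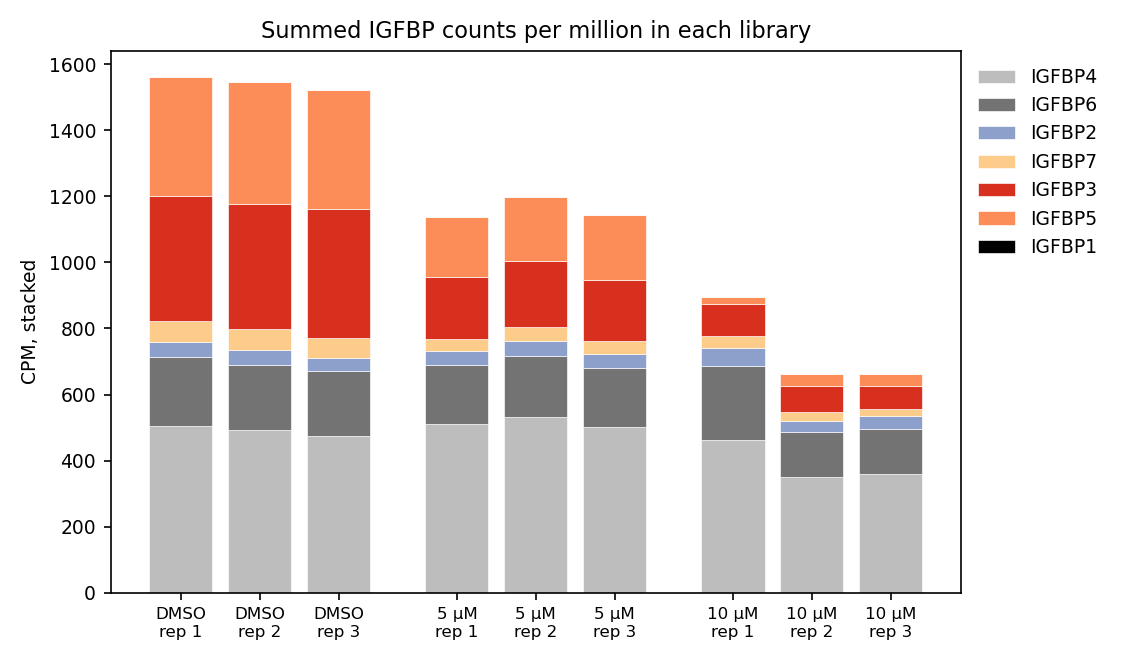
Stacked CPM of the 7 IGFBP genes in each library, by treatment and replicate. The red and orange blocks (IGFBP3 and IGFBP5) shrink with dose while the grey block of IGFBP4 at the base stays between 351 and 533 CPM; IGFBP1, at most 0.144 CPM, is too small to see.

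Compared per length, as CPM per kilobase of merged exons, the order in DMSO was IGFBP4 (223 ± 6.37), IGFBP6 (150 ± 6.32), IGFBP3 (83.6 ± 1.36), IGFBP5 (56.4 ± 0.880), IGFBP7 (33.0 ± 0.871), IGFBP2 (8.75 ± 0.723) and IGFBP1 (0.0739 ± 0.0218). No neighbours in this order overlapped between libraries, and the order was the same at 5 µM. At 10 µM IGFBP5 dropped by 2 places, at 4.66 ± 1.33 and below IGFBP2 at 8.98 ± 2.38. There IGFBP4 and IGFBP6 (178 ± 28.5 and 122 ± 37.3) overlapped, as did IGFBP7 (14.7 ± 4.08) with IGFBP3 (17.9 ± 2.83) and with IGFBP2. The order depended on the length used. With the principal transcript, IGFBP6 and IGFBP3 overlapped in DMSO (172 ± 7.27 and 169 ± 2.75), and IGFBP2 was above IGFBP7 at 10 µM (29.8 ± 7.87 and 19.8 ± 5.51, overlapping).

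For each tested member, the 3 genes whose log2 CPM was most like its own over the 9 libraries were taken from 13677 genes, by Pearson's r as a description. They were APOBEC3G, SERPINA3 and TGFBI for IGFBP3 (r = 0.999, 0.999 and 0.997), IGF2BP3, PLEKHA2 and NISCH for IGFBP5 (0.997 each), and MDK, AURKB and TNFRSF1A for IGFBP7 (0.997, 0.996 and 0.995). With the 3 genes most like IGFBP3, the sizes of the changes matched too, with log2 fold changes at 10 µM of -2.004, -2.38 and -2.13, whereas those of the genes most like IGFBP5 were smaller, at -1.24, -1.41 and -0.45. IGFBP4 was most like SLC22A4, SEMA3B and CAPS (0.970, 0.966 and 0.965), IGFBP6 like CKB, ERICH1 and HSD11B1L (0.993, 0.982 and 0.980), and IGFBP2 like MESP1, TPM2 and SPSB2 (0.971, 0.967 and 0.953). Among the members themselves r was 0.958 for IGFBP3 and IGFBP7, 0.946 for IGFBP3 and IGFBP5 and 0.818 for IGFBP5 and IGFBP7. Pairs with members that were not called came close to the last of these, with 0.807 for IGFBP4 and IGFBP6 and 0.800 for IGFBP6 and IGFBP7. The lowest r was -0.106, for IGFBP2 and IGFBP5. All these points share the dose groups and the deviating 10 µM library.

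The other genes of the IGF axis were read from 8 lists holding 54 genes, of which 47 were tested. At 5 µM, 2 were called higher and 0 lower, and at 10 µM, 6 were called higher and 7 lower, with medians of -0.034 and -0.30 on the log2 scale. Over all genes tested, 2.14% were called higher and 2.72% lower at 5 µM, and 8.57% and 10.5% at 10 µM, so the counts over the 8 lists lay near the background. The ligands were hardly transcribed. IGF1 had no counts in DMSO or at 10 µM, and IGF2 was at 0.383 ± 0.108, 0.368 ± 0.314 and 0.488 ± 0.120 CPM and was not called.

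Of the 3 receptors tested, 1 was called lower at 10 µM and 0 higher, against 10.5% and 8.57% of all genes tested. IGF1R, the receptor that IGFBPs keep from its ligands, was at 160 ± 3.55, 177 ± 5.89 and 150 ± 38.2 CPM, with a log2 fold change of -0.096 at 10 µM (95% confidence interval -0.44 to 0.25, adjusted p = 0.678) that turned to 0.099 without 10 µM replicate 1. IGF2R, which clears IGF2, was at 202 ± 6.36, 207 ± 3.61 and 161 ± 63.3 CPM, with 87.7 CPM in that library and about 197 CPM in the others (adjusted p = 0.331). INSR, the insulin receptor, was at 23.9 ± 0.237, 17.8 ± 0.600 and 14.9 ± 4.03 CPM and was called lower at 10 µM (log2 fold change -0.68, adjusted p = 0.00863), a call lost without 10 µM replicate 1 (-0.53, under the fold limit).

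The main adaptors moved in opposite directions. IRS1 was at 69.7, 68.8 and 73.4 CPM in DMSO, 60.1, 59.7 and 63.9 CPM at 5 µM, and 30.3, 38.1 and 39.0 CPM at 10 µM, a log2 fold change of -0.98 at 10 µM (SE 0.10, adjusted p = 7.14e-05). IRS2 was at 128, 133 and 135 CPM in DMSO, 173, 178 and 160 CPM at 5 µM, and 178, 239 and 220 CPM at 10 µM, a log2 fold change of 0.68 (SE 0.10, adjusted p = 0.000838). Neither was called at 5 µM, and the other 6 adaptors tested were not called at either dose. Of 12 genes of PI3K, AKT and FOXO, 1 was called lower at 10 µM and 0 higher, against 10.5% and 8.57% of all genes tested. The gene called was FOXO3, a transcription factor restrained by AKT (-0.65, adjusted p = 0.0139), and the call was lost without 10 µM replicate 1 (-0.45).

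Among 9 genes of IGFBP proteases, their inhibitors and the carrier subunit IGFALS, 1 was called higher and 1 lower at 10 µM, near the background of 8.57% and 10.5%. STC2, which inhibits PAPPA, was at 29.7, 27.9 and 26.95 CPM in DMSO, 33.4, 35.4 and 34.8 CPM at 5 µM, and 56.2, 55.7 and 57.8 CPM at 10 µM (log2 fold change 1.01, SE 0.073, adjusted p = 7.62e-06). PAPPA itself was at 7.60 ± 0.362, 11.1 ± 0.679 and 4.82 ± 3.26 CPM and was not called (adjusted p = 0.550 at 5 µM and 0.320 at 10 µM), with 1.12 CPM in 10 µM replicate 1 and 6.06 and 7.27 CPM in the others. Every 5 µM library (10.3 to 11.6 CPM) nevertheless lay above every DMSO library (7.22 to 7.94 CPM). Over 21 alternatives the log2 fold change at 5 µM was 0.51 to 0.59 and called in 0. Its adjusted p, each from the test of that alternative, ranged from 0.000507 to 0.745. Between the doses PAPPA was not called either (log2 fold change -1.20, adjusted p = 0.151), but it was called lower in 1 of 21 alternatives. HTRA1, a secreted protease of IGFBP5 among other substrates, was at 15.6 ± 0.586, 23.1 ± 2.04 and 21.9 ± 2.76 CPM, with log2 fold changes of 0.57 and 0.49 (adjusted p = 0.0109 and 0.00755) that were under the fold limit. HTRA1 was called higher in 3 of 21 alternatives at 5 µM (0.50 to 0.62) and in 1 of 21 at 10 µM (0.40 to 0.58). ADAM9, a membrane protease, was called lower at 10 µM (-0.89, adjusted p = 0.00134). Its 10 µM libraries were at 77.0 CPM in replicate 1 and 113 and 126 CPM in the others, and it was called in 20 of 21 alternatives (-1.04 to -0.71).

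Relatives that carry an IGFBP-like N-terminal domain, most of them secreted, were higher where they were called. Of 12 listed, 8 were tested, and 2 were called higher at 5 µM and 4 at 10 µM, with 0 lower, against 2.14% and 8.57% of all genes called higher. Those at 5 µM were ESM1, just past the fold limit (log2 fold change 0.59, adjusted p = 0.00166) and called in 12 of 21 alternatives (0.57 to 0.60), and NOV (CCN3, 0.65, adjusted p = 0.00150), which was named after its values were seen and was also called at 10 µM (0.83, adjusted p = 8.76e-05). The largest rise was that of CTGF (CCN2), a matricellular growth regulator, which was at 35.3 ± 0.366, 51.3 ± 2.12 and 130 ± 2.90 CPM in DMSO, 5 µM and 10 µM (log2 fold change 1.88, SE 0.069, adjusted p = 1.41e-07). CYR61 (CCN1) went from 78.2 ± 4.08 to 94.6 ± 5.46 and 221 ± 15.999 CPM (1.495, SE 0.083, adjusted p = 1.44e-06), and ESM1, a secreted proteoglycan, from 103 ± 2.05 to 155 ± 2.16 and 234 ± 23.6 CPM (1.18, SE 0.081, adjusted p = 5.37e-06). The median log2 fold change of the 8 tested was 0.57 at 10 µM, against -0.75 for the 6 tested IGFBPs and 0.011 for all genes.

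Of the 3 cell-surface partners, LRP1, an endocytic receptor that binds IGFBP3, was called lower at 10 µM (411 ± 11.4, 366 ± 8.39 and 206 ± 79.3 CPM, log2 fold change -1.002, adjusted p = 0.00914). Replicate 1 was the lowest 10 µM library, at 115 CPM against 241 and 261 CPM, and the fall was called in 21 of 21 alternatives (-1.21 to -0.72). So 1 of the 3 partners was lower and 0 higher, against 10.5% and 8.57% of all genes tested. The IGF2 mRNA-binding proteins are unrelated to the IGFBPs in structure and bind the IGF2 transcript among others. IGF2BP3 (-1.24, adjusted p = 8.34e-06) and IGF2BP2 (-0.70, adjusted p = 0.000413) were called lower at 10 µM. So 2 of the 3 were lower and 0 higher, against 10.5% and 8.57% of all genes tested.

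**Figure D4:**
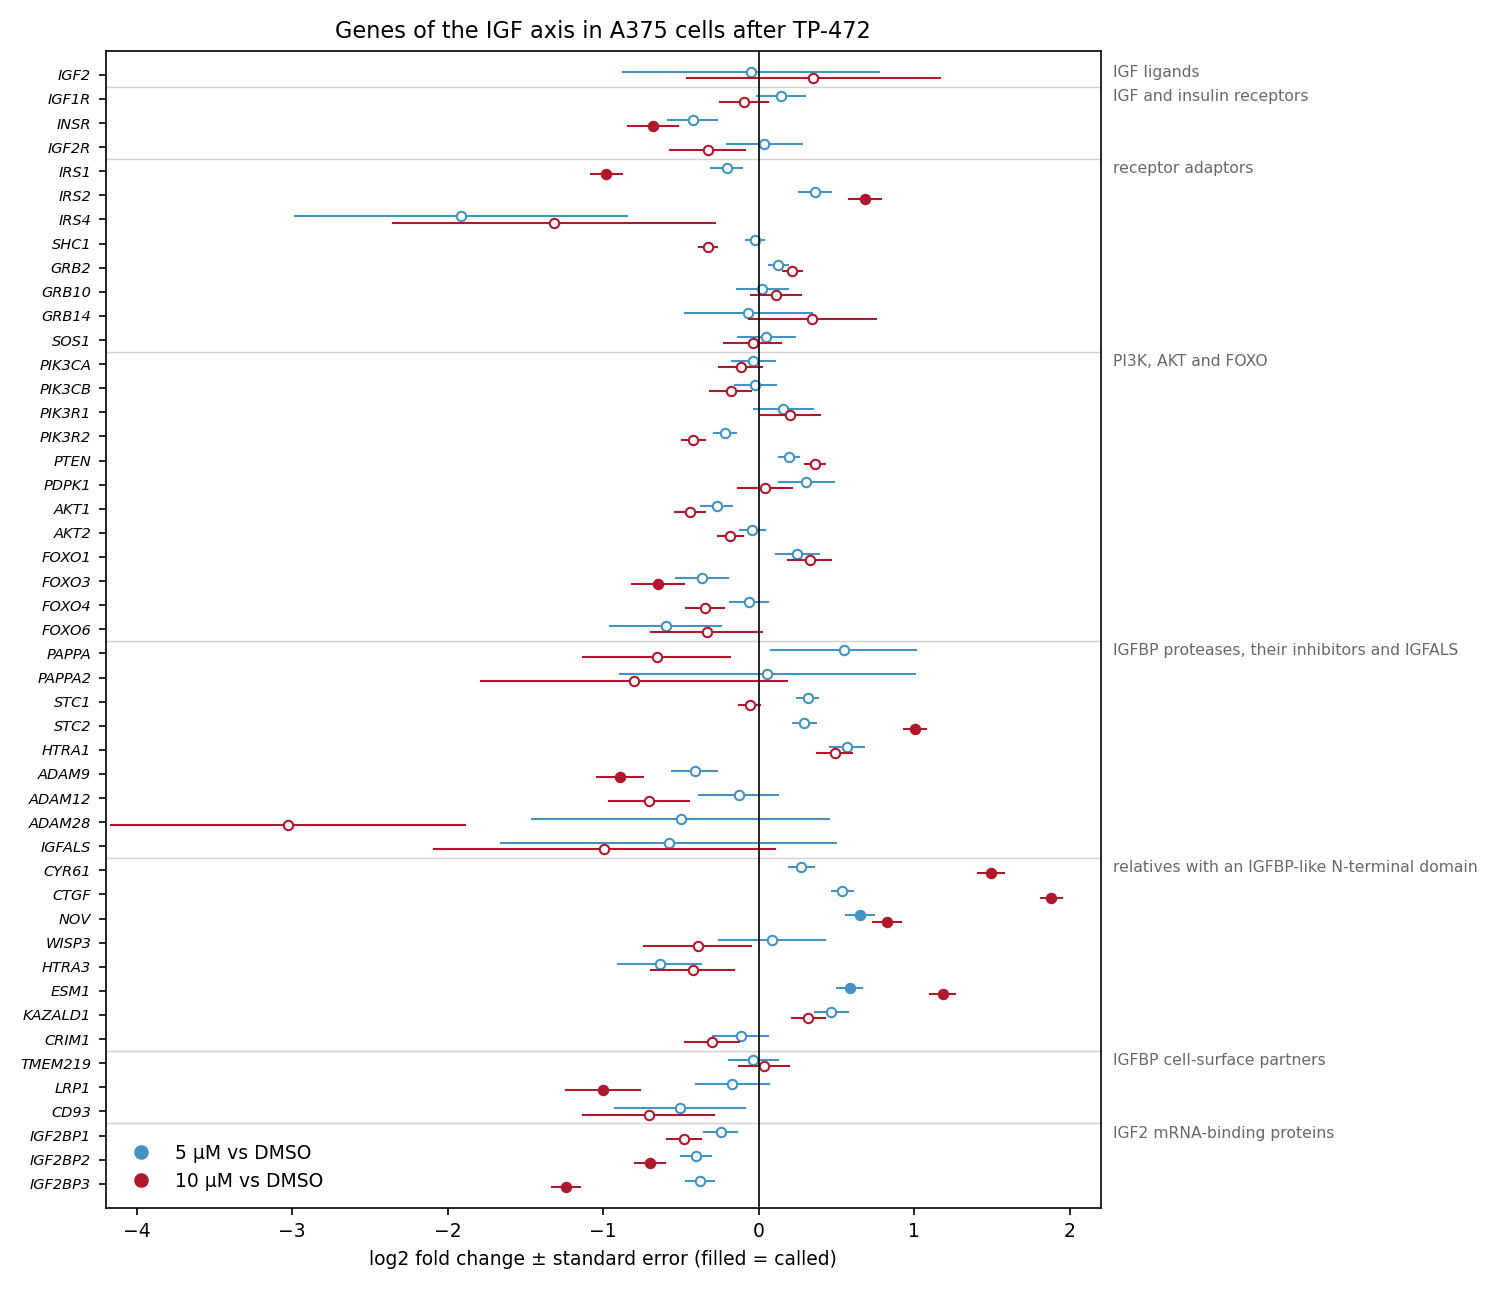
Log2 fold change ± standard error of the 47 tested genes of the 8 IGF-axis lists at 5 µM and 10 µM against DMSO, with filled points called. CTGF, CYR61 and ESM1 lie at 1.88, 1.495 and 1.18 for 10 µM on the right, while IRS1, LRP1 and IGF2BP3, the called genes furthest left, lie at or near -1 or below. Low-count genes that were not called lie further left, down to -3.03.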

How the data were processed

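mRNA of A375 cells was sequenced in 9 libraries, 3 each for DMSO, 5 µM and 10 µM TP-472, labelled as biological replicates. The authors deposited 1 table of RSEM expected counts per gene symbol, not scaled to library size. The submitters' processing notes name Bowtie2 2.1.0, RSEM 1.2.15 and hg38, and no source used here gives the annotation or says if counting used strand. Oligo-dT beads are named in the methods and ribosomal RNA depletion in the design text, and which applies is not known.

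Expected counts were rounded to whole numbers (10.6% to 13.8% per library were not whole) and tested over all genes with edgeR 4.0.16 in R 4.3.3 (TMM, filterByExpr, 1 quasi-likelihood fit of the 3 groups). The standard error was taken as |log2 fold change|/√F. The study gives a general test in GraphPad Prism and none specific to sequencing counts. Alternatives were other scaling factors, filters and fold limits, DESeq2 1.42.0, limma-voom (limma 3.58.1), a replicate block, fits of only the groups compared, no ribosomal RNA genes, each library left out, and, chosen after seeing the data, removal of a trend with length and GC content over 15273 genes (natural splines, 4 degrees of freedom). Likeness used log2 CPM with a prior count of 2 and genes averaging 1 CPM or more. For 1 gene, an exact permutation of 3 against 3 libraries cannot go below p = 0.1, and edgeR's p-values borrow the spread of other genes. Statistics were tested on simulated data.

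By the rule for named genes, the text names the 7 IGFBP genes, IGF1, IGF2, IGF1R, INSR, IGF2R, IRS1, IRS2, PAPPA, STC2 and HTRA1, up to 3 genes per list called at 10 µM against DMSO with the largest change, and the 3 genes most like each member. Outside it, cell type markers, genes overlapping a member and NOV were named after their values were seen. The members and lists were chosen with earlier results of these data known, and 1 gene of the lists is left out of the counts and not reported here. Positions are from GENCODE 29 and promoter sequences from RefSeq (GRCh38.p14). Tables and plots used Python 3.11.15, pandas 2.3.3, numpy 2.4.6 and matplotlib 3.10.9.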

Additional observations from a re-analysis of the deposited data

How the results depend on the processing

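Under 21 alternatives, IGFBP3 was called lower in every one of the 3 comparisons, as was IGFBP5 except at 5 µM with a fold of at least 2, and IGFBP7 at 10 µM against DMSO (-1.41 to -1.01). The number of IGFBP genes lower at 5 µM was 1 with a fold of at least 2 and 2 to 3 with a library left out. The contrast of the 2 steps gave 0 genes with the replicate block and 0 to 2 with a library left out. The library numbers did not pair the libraries (r of -0.049 to 0.032 over 9 pairs), and the replicate block left the other counts at 3, 3 and 2. IGFBP2, close to 0 throughout, changed sign: between the doses it was 0.019 with upper-quartile factors, 0.0029 with the filter at 1 CPM and 0.11 with the length and GC trend removed, and with a library left out it ranged from -0.24 to 0.14, from -0.19 to 0.19 at 10 µM and from -0.014 to 0.10 at 5 µM. IGF1R at 10 µM turned to 0.084 with that trend removed and ranged from -0.22 to 0.099 with a library left out, the last without 10 µM replicate 1. For the 8 lists, the number called at 5 µM was 1 higher with RLE factors, no filter, DESeq2, no ribosomal RNA genes or the trend removed, 1 to 3 higher with a library left out, 7 higher and 2 lower with no fold limit, 0 higher at a fold of 2 and 2 lower with only the groups compared, and at 10 µM 10 higher and 11 lower with no fold limit and 2 lower at a fold of 2. Another scaling moved the median of all genes at 10 µM by at most 0.041. Causes were not tested, and IGFBP1, at 0 to 7 counts, is limited by depth.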
